A study of Taeniopygia guttata with 8 samples.

Results

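Acetylation of histone H3 at lysine 27 (H3K27ac) was measured in Area X and in RA of the zebra finch, and 914 genomic regions carried a strong signal at about the same level in both nuclei. These shared strong regions were chosen from the deposited read counts themselves. Counts were expressed as CPM, the count of a region over the sum of its library's counts, times 1000000. A region was kept when its mean CPM over 14 libraries was at least 50 and its mean over the 7 Area X libraries lay between 13% below and 15% above its mean over the 7 RA libraries, which is called the ratio window here. The 914 regions were 2.54% of the 35958 regions listed and 18.3% of the 4998 regions that met the minimum level. Of the other strong regions, 2468 had a ratio above the window and 1616 a ratio below it. Because the counts chose the 914 regions, their level and their nucleus ratio are given as descriptions. Calls on that ratio are not used as a test.

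H3K27ac is placed by acetyltransferases such as CBP and p300 on nucleosomes at active promoters and active enhancers. In many tissues the mark differs more between cell types at enhancers distant from genes than at promoters. Area X is a nucleus of the striatum, where most neurons are inhibitory, and belongs to the circuit used in song learning. RA, the robust nucleus of the arcopallium, is a pallial nucleus whose projection neurons drive the vocal and respiratory motor system during song.

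The study compared adult males that sang with adult males that stayed silent, in both nuclei, by chromatin immunoprecipitation and sequencing. Birds were isolated in chambers that damp sound, and brains were taken after lights on and 1 to 2 hours of singing or of silence. For the singing samples the labels give 2 hours. Nuclei from 6 birds were combined in a pool, with 18 birds and 3 pools per behaviour, and were dissected from 400 µm sections, although the source is labelled as laser-captured. The table holds 4 singing and 3 silent libraries of Area X, and 4 singing and 3 silent libraries of RA, and the labels used here do not say where the fourth singing library of each nucleus came from. The column names say plus and minus, which were read as singing and silent, and every direction of behaviour rests on that reading. They do not name the assay and were taken as H3K27ac libraries. If numbered libraries came from one pool, the p-values measure only the spread between these libraries, which may be technical. Area X and RA libraries may come from the same birds.

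Reads in the listed regions summed to 4.64 to 10.6 M per Area X library and to 0.203 to 9.48 M per RA library (M, 1000000 reads). RA singing library 4 was the shallowest, with a median of 16 reads per shared strong region, against 777.5 in Area X silent library 3, the deepest. A pair of RA libraries stood apart before any comparison of behaviour. The regions higher in Area X took 30.9% of the reads of RA singing library 4 and 29.0% of those of RA silent library 2. They took 14.7% to 22.6% in the other 5 RA libraries and 30.9% to 41.1% in the Area X libraries. Some counts that use RA libraries, among them counts of the behaviour comparisons, are also given without this pair. The counts by width, density, level, chromosome and neighbour, and the CVs, are given only with it. In pooled tissue, fewer cells that carry the mark and less mark per cell cannot be told apart. No source used here names the genome build behind the positions. Regions are therefore identified by chromosome, start and end, with starts counted from 1, and were not tied to genes or to markers of either nucleus.

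Relative to the other strong regions, the shared strong regions were narrow and dense. They covered 2.55 Mb, 5.76% of the length of all listed regions, and their median width was 2183 bp (quartiles 1558 and 3221 bp). The strong regions above the window had a median width of 3408.5 bp, those below it 3011 bp, and all listed regions 764 bp. The mean level per kilobase had a median of 36.1 CPM per kb in the shared strong regions. It was 27.8 CPM per kb in those above the window, 25.6 in those below it and 17.2 over all regions. Of the 914 regions, 153 (16.7%) were wider than 4000 bp, compared with 37.7% of strong regions above the window and 28.03% of those below it. Widths are those of the authors' regions, and no source used here states the criteria that set their boundaries. CPM per kb divides the level by the width. With a minimum level, narrow regions thus tend to be dense by construction, and width and density are not independent. On TMM-scaled CPM, another scaling used below, the same limits kept 827 regions, of which 201 were among the 914. Widths and densities of those 827 are not given here.

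The share of strong regions that was alike in both nuclei was lower in each wider class of regions. Of the 60 strong regions up to 1000 bp wide, 30 (50%) lay in the ratio window. The share was 35.8% (371 of 1037) between 1000 and 2000 bp. It was 15.2% (360 of 2364) between 2000 and 4000 bp, and 9.95% (153 of 1537) above 4000 bp. When the 4998 strong regions were split into 5 classes of equal size by CPM per kb, the share was higher in each denser class, at 4.2%, 11.6%, 16.9%, 22.02% and 36.7%.

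Level separated the shared strong regions from the others less than width did. The share alike was 19.98% at 50 to 75 CPM, 17.9% at 75 to 100 CPM, 16.9% at 100 to 200 CPM, 13.8% at 200 to 400 CPM and 13.9% (10 of 72) above 400 CPM. Within each of these classes the shared strong regions had the smaller median width. At 50 to 75 CPM it was 1750 bp, against 2478.5 bp in the other strong regions of that level. At 100 to 200 CPM it was 3652.5 bp, against 4588 bp. Above 400 CPM the medians were close, at 13250.0 and 13690.5 bp.

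**Figure D1:**
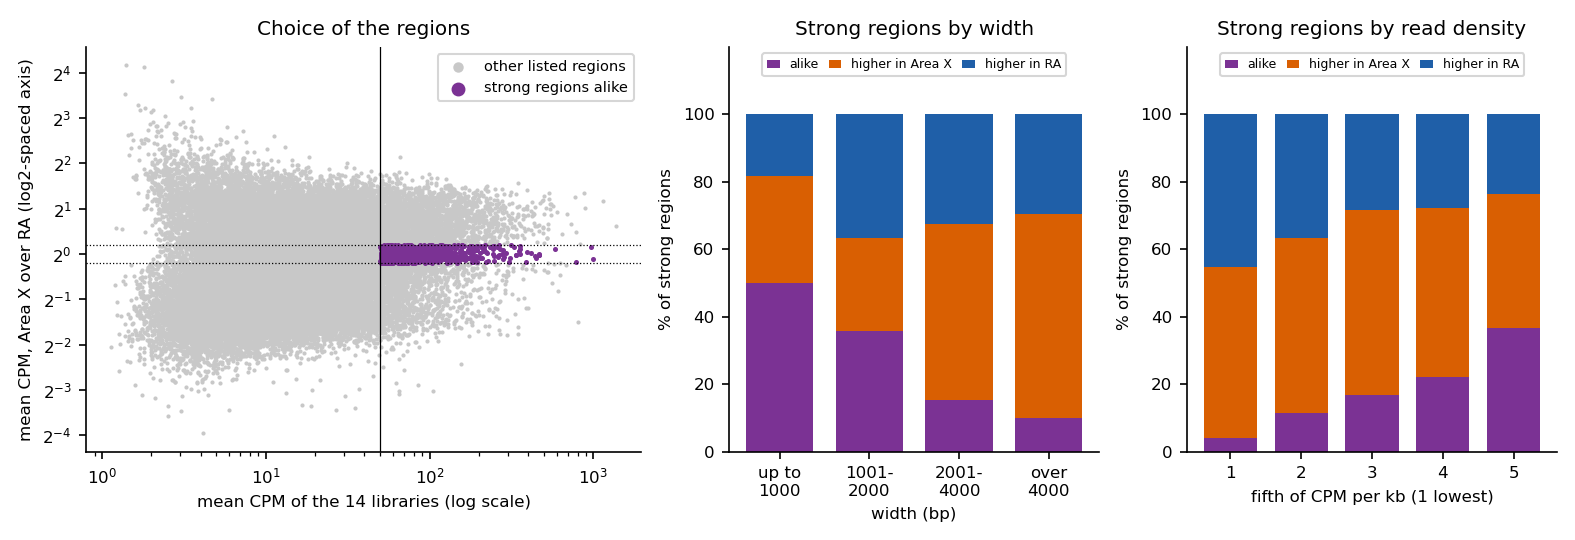
The left panel plots every listed region by mean CPM and by the ratio of Area X to RA, both on log axes, with the shared strong regions in purple and the limits of the rule as lines; the stacked bars give the percent of strong regions that were alike, higher in Area X or higher in RA, by width and by class of CPM per kb. The share alike is 50% in the narrowest class and 9.95% in the widest, and 4.2% in the least dense class and 36.7% in the densest.

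The regions nearest each limit of the rule lay close to it on both sides, which follows from how they were picked. Just inside the lower ratio limit, chr8:11458798-11461788 had a mean of 60.1 ± 6.67 CPM in Area X and 69.1 ± 15.1 CPM in RA (SD, n = 7 each), and just outside it, chr13:3610287-3612176 had 49.6 ± 13.3 CPM in Area X and 57.0 ± 19.8 CPM in RA. At the upper limit, chr3:80032024-80033555 lay just inside with 61.2 ± 15.6 CPM in Area X and 53.2 ± 14.4 CPM in RA. Just outside lay chr4:59300700-59303616, with 154 ± 18.7 CPM in Area X and 134 ± 47.7 CPM in RA. At the minimum level, chr1A:47594183-47597027 was inside at 50.1 CPM and chr3:28672650-28674016 outside at 49.7 CPM. The ratios were 0.8701 inside and 0.8698 outside the lower limit, and 1.1499 inside and 1.1508 outside the upper limit. The pair at the upper limit differed in level. Regions lay this close on both sides of each limit, so the limits do not mark a gap in the values.

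The shared strong regions were spread over the genome. They lay on 44 of the 67 sequence names of the table. Among the 23 chromosomes with at least 100 strong regions, the share alike had a median of 18.0%. It was highest on chromosome 4, at 25.6% (41 of 160), followed by chromosome 24, at 25.5% (26 of 102). It was lowest on chromosome 4A, at 12.1% (21 of 173), and on chromosome 7, at 12.3% (16 of 130). On the sex chromosome Z, of which male birds have a pair, it was 19.1% (40 of 209). The large chromosomes 1, 1A, 2 to 5 and Z held 44.7% of the shared strong regions, compared with 39.8% of the other strong regions and 41.7% of all listed regions. Unplaced and random sequence held 49 of them (5.36%), compared with 5.56% of the other strong regions and 9.89% of all regions.

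Most had a listed region nearby, and most were not joined to another shared strong region. The gap to the nearest listed region had a median of 3396 bp, against 2325.5 bp for all strong regions and 3443 bp for all listed regions. A neighbour lay within 1000 bp of 165 of them (18.1%), compared with 28.6% of strong regions above the window and 25.2% of those below it. Within 10000 bp one lay near 649 of them (71.0%), against 72.1% of all listed regions. When consecutive shared strong regions up to 10000 bp apart were joined, 857 stayed single, 27 pairs formed and 1 run held 3 regions. That run, chr12:4661349-4675662, summed to 343 ± 49.0 CPM in Area X and 319 ± 77.6 CPM in RA (SD, n = 7 each). Counts of joined regions are not given here for other sets, so they do not show whether this set was unusually scattered.

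The listed regions beside the shared strong regions lay mostly outside the ratio window, on both sides of it. There were 872 listed regions outside the set that lay next to a shared strong region within 10000 bp. Of these, 274 (31.4%) had a ratio above the window, 468 (53.7%) a ratio below it and 130 (14.9%) a ratio in the window. Strong regions with an even ratio are left out of these neighbours by definition. Over all 35958 regions the 3 shares were 32.6%, 54.8% and 12.6%.

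The ratio of Area X to RA had a median of 0.995 over the 914 regions. It was at or above 1 in 440 and below 1 in 474, and it lay within 5% of 1 in 327. The 914 regions were chosen on all 14 libraries, which favours a lower count in the window when only part of the libraries is used. From the singing libraries alone, 728 of the 914 regions had a ratio in the window, and from the silent libraries alone 596. Both held for 456 regions. Applied anew to the singing libraries alone, the rule kept 986 regions, and to the silent libraries alone 813. Without RA silent library 2 and RA singing library 4, 698 of the 914 stayed in the window.

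What counts as even depends on the scaling. Under TMM scaling, which centres the bulk of regions, the 914 regions had a median fitted log2 difference of 0.31 (Area X over RA), beside -0.04 over all regions tested. Column sums gave -0.01 beside -0.35. Relative to all regions the shared strong regions were thus 0.34 log2 units toward Area X under both. With TMM scaling edgeR's quasi-likelihood test called 111 of them (12.1%) higher in Area X at an adjusted p of 0.05, against 28.5% of all regions. It called 0 higher in RA, against 25.3% of all regions. Under TMM the fitted differences of the 914 were all positive, at 0.06 to 0.59, so none could be called higher in RA. With column sums the test called 0 of them. The count of 111 ranged from 2 without RA silent library 1 to 165 without RA silent library 2 when libraries were left out in turn. It was 8 without Area X silent library 3, 25 without Area X silent library 2, 73 and 57 without Area X singing library 2 or 3, 46 without RA singing library 2 and 18 without RA singing library 1 or RA silent library 3. Without the pair that stood apart it was 187. The rule used this contrast, so these calls are description only. Applied to TMM-scaled CPM, the same limits kept 827 regions, of which 201 were among the 914.

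The strongest shared region was also the widest. It was chr14:10761033-10790289, 29257 bp wide with a mean of 999.8 CPM. It measured 899, 899, 878 and 1080.3 CPM in the 4 Area X singing libraries and 1039.8, 941 and 1005 CPM in the 3 Area X silent libraries. In RA it measured 893, 962, 1256 and 1072 CPM in the singing libraries and 906, 969 and 1197 CPM in the silent ones. The ranges of all 4 groups overlapped. The means were 963 ± 78.8 CPM in Area X and 1036 ± 143 CPM in RA (SD, n = 7 each).

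The next in level were a pair on chromosome 9. The region chr9:19313770-19335397 measured 1036, 916, 1207 and 999.7 CPM in Area X singing and 888, 1006 and 1130.2 CPM in Area X silent libraries. Its RA values were 802, 910.3, 872 and 943 CPM in singing and 829, 945 and 1120.4 CPM in silent libraries. All 4 groups overlapped, with the lowest library among RA singing and the highest among Area X singing.

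The denser region of the pair, chr9:17437838-17450926, measured 851, 807, 639 and 632 CPM in Area X singing and 758, 741 and 699 CPM in Area X silent libraries. Its RA values were 874, 776, 639 and 874 CPM in singing and 878, 827 and 940.2 CPM in silent libraries. The 3 RA silent libraries all lay above the 3 Area X silent libraries, while the singing libraries of the nuclei overlapped. At 59.7 CPM per kb it was the densest of the 10 strongest shared regions.

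The steadiest region of the set was chr8:22906775-22917849, 11075 bp wide, with a coefficient of variation (CV, the SD over the mean) of 5.59% over the 14 libraries. It measured 453, 427, 398 and 397 CPM in Area X singing and 457, 446 and 459.8 CPM in Area X silent libraries. It measured 432, 438, 432 and 439 CPM in RA singing and 432, 442 and 494 CPM in RA silent libraries. All 14 values lay between 397 and 494 CPM, and RA silent library 3 was the highest. A narrow region was almost as steady. At chr2:71562992-71564039, 1048 bp wide, the mean was 61.1 ± 3.65 CPM in Area X and 59.8 ± 6.25 CPM in RA (SD, n = 7 each), with a CV of 8.20%.

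**Figure D2:**
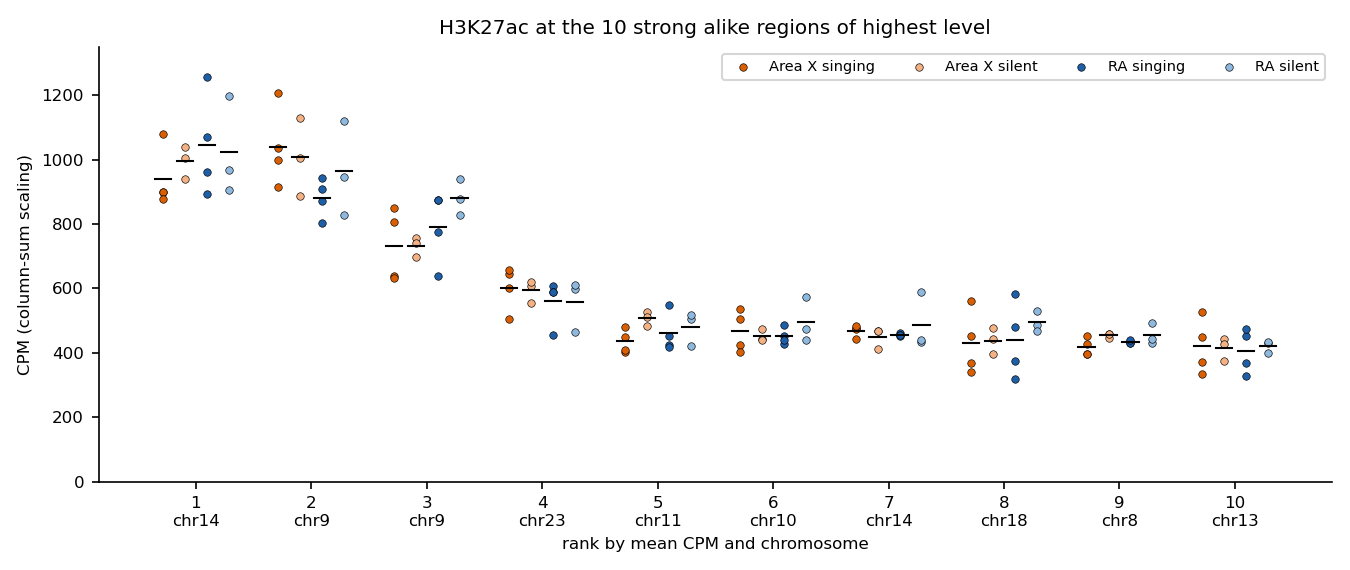
CPM of the 10 strongest shared regions in each of the 14 libraries, as points by group, with a line at each group mean and the regions ordered by mean CPM. The 4 groups overlap at the strongest region, chr14:10761033-10790289, and its libraries lie between 878 and 1256 CPM.

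Over all 914 regions the CV had a median of 21.6% (quartiles 17.3% and 26.7%). It was 38.5% in strong regions above the window, 36.3% in those below it and 51.6% over all listed regions. An even nucleus ratio lowers this CV by construction. The CV within groups, which the ratio does not enter directly, had a median of 22.2% in the shared strong regions, 28.3% above the window, 28.9% below it and 42.5% over all regions. The ratio can enter it through the pair of RA libraries that stood apart, and values without that pair are not given here. All regions also had a lower median level, 13.9 CPM against 74.0 CPM. The highest library exceeded the lowest by a median of 2.15-fold, and by less than 2-fold in 343 regions. Across the 914 regions the CV was lower where regions were wider (Spearman's rho -0.48) and where the level was higher (rho -0.38). Width and level were correlated with each other (rho 0.64), and all these values share the same 14 libraries.

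The least steady region, chr3:39798049-39800725, had a CV of 50.4%. It measured 20.8, 30.9, 68.6 and 53.4 CPM in Area X singing and 40.3, 73.0 and 82.6 CPM in Area X silent libraries. It measured 15.8, 106, 49.1 and 69.1 CPM in RA singing and 17.9, 60.3 and 44.1 CPM in RA silent libraries. Library 1 was the lowest of each of the 4 groups. At the narrowest region, chrUn:146043240-146043525, the order was different. This region of 286 bp on unplaced sequence held 282 CPM per kb, the highest density of the set. It measured 118, 73.9, 68.8 and 46.6 CPM in Area X singing, 83.8, 104 and 78.2 CPM in Area X silent, 132, 67.9, 26.1 and 44.4 CPM in RA singing and 106, 106 and 74.3 CPM in RA silent libraries. There library 1 was the highest of both singing groups.

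This contrast between dense and sparse regions ran through the whole set. The first principal component of the log2 CPM of the 914 regions held 55.0% of the variance between libraries, and the second 12.1%. The loading of a region on the first was correlated with its log2 CPM per kb (Pearson's r 0.59) and with its log2 width (r -0.56) across the 914 regions, which share the 14 libraries. The densest 305 of the regions (at least 43.4 CPM per kb) took 3.99%, 3.49%, 2.63% and 2.42% of the reads of Area X singing libraries 1 to 4. They took 3.20%, 3.49% and 3.11% of the Area X silent libraries. In RA they took 3.57%, 2.95%, 2.17% and 3.25% of the singing libraries and 3.77%, 3.50% and 3.39% of the silent libraries. The least dense 305 (up to 30.8 CPM per kb) took 2.42% to 2.85% in all 14 libraries. The ratio of the share of the densest 305 to that of the least dense 305 was highest in RA silent library 1, at 1.56, and lowest in RA singing library 3, at 0.773. In the other strong regions, split in the same way by CPM per kb, it was 0.995 in RA singing library 3, the lowest. There it was highest in Area X singing library 1, at 2.51. A ratio that varied between libraries was thus not particular to the shared strong regions. For the shallowest library, RA singing library 4, the 95% Wilson interval of the share of the densest 305 was 3.17% to 3.32%, which covers counting error only. Enrichment of the immunoprecipitation over input was not measured in the data used here, and its part in these shares was not tested.

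**Figure D3:**
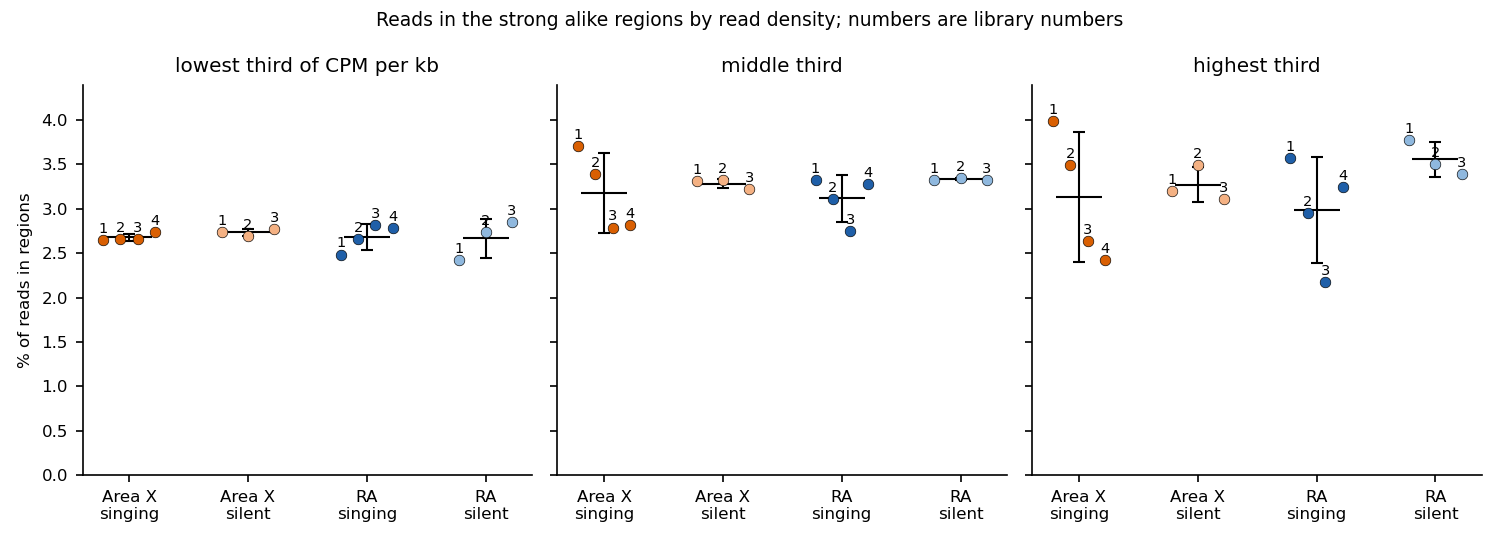
Percent of the reads of each library that fell in the 305 least dense, the 304 middle and the 305 densest shared strong regions by CPM per kb, with the library number beside each point and bars for the group mean ± SD. The share of the densest 305 runs from 2.17% in RA singing library 3 to 3.99% in Area X singing library 1, while that of the least dense 305 stays between 2.42% and 2.85%.

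Together the 914 regions took 9.12% ± 0.84 of the reads of an Area X library and 9.12% ± 0.68 of those of an RA library (SD, n = 7 each), which the rule makes close. By behaviour the share was 8.99% ± 1.152 in Area X singing (n = 4), 9.29% ± 0.20 in Area X silent (n = 3), 8.79% ± 0.76 in RA singing (n = 4) and 9.56% ± 0.03 in RA silent libraries (n = 3). In Area X the singing libraries ran from 7.98% to 10.3% and enclosed the silent libraries. In RA all 4 singing libraries, at 7.74% to 9.38%, lay below the 3 silent libraries, at 9.52% to 9.58%. The rule, which asks for equal means in both nuclei, favours a like ranking of the regions across nuclei. Spearman's rho between libraries had a median of 0.788 over the 49 pairs between nuclei, 0.806 over the 21 pairs within Area X and 0.713 over the 21 pairs within RA. Without the pair that stood apart it was 0.787 over 35 pairs between nuclei and 0.718 over 10 pairs within RA. The most alike pair crossed the nuclei, Area X silent library 2 with RA silent library 2, which is 1 of the pair that stood apart, at 0.949. The least alike pair was RA singing library 3 with RA silent library 1, at 0.444.

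The behaviour of the birds was not used by the rule. With edgeR's quasi-likelihood test on all 14 libraries, none of the 914 regions differed between singing and silent birds at an adjusted p of 0.05 in Area X, in RA, or averaged over both, and none had a singing effect that differed between the nuclei (all regions 0% in each). The smallest adjusted p among them was 1.00 in all 4 comparisons. DESeq2 also called 0 of the 914 in each, and over all regions it called 1 in Area X, which was not among them. A test that calls no region does not show that the mark was the same.

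The singing effect was bounded more closely in the shared strong regions than over all regions. The minimum level of the rule favours this, as intervals are narrower at higher counts. The other strong regions met the same minimum. The median level over all listed regions was 13.9 CPM, against 74.0 CPM in the shared strong regions. The 95% interval of the effect lay within 2-fold in either direction for 837 of them in Area X (91.6%, against 69.1% of the other strong regions and 34.8% of all regions). In RA it did so for 691 (75.6%, against 61.4% and 26.5%). In the mean of both nuclei it did so for 899 regions (98.4%, against 89.4% of the other strong regions and 62.6% of all regions). For the difference between the effects of the nuclei it did so for 367 (40.2%, against 23.6% and 6.3%). Without the pair that stood apart, the counts were 843 in Area X, 565 in RA (61.8%, against 17.6% of all regions), 887 in the mean and 276 for the difference. Shares of the other strong regions are not given without that pair, so the comparison under the same minimum was not checked there. The median interval reached 0.57 log2 units to either side in Area X, 0.59 in RA, 0.41 in the mean and 0.82 in the difference. For the 10 strongest shared regions every interval lay within 2-fold in Area X, in RA and in the mean, and their fitted log2 differences in RA were -0.25 to -0.05.

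The median fitted singing effects of the shared strong regions lay below those of the other regions. In the main fit they did so by no more than about the SD between libraries. In RA their median log2 difference, singing minus silent, was -0.21 (quartiles -0.35 and -0.05), beside -0.06 in the other strong regions and -0.04 over all regions tested. It was negative in 80.5% of the shared strong regions, beside 59.5% of the other strong regions and 54.0% of all regions. In Area X the median was -0.08 (quartiles -0.18 and 0.03), beside -0.01 and 0.04, and 70.4% were negative, beside 51.9% and 45.1%. In the mean of both nuclei it was -0.15, beside -0.04 and 0.00. The median of the difference between nuclei (Area X effect minus RA effect) was 0.15, beside 0.06 and 0.09. Its place against all regions turned when a library was left out, at 0.03 beside 0.10 without Area X silent library 1 and 0.10 beside 0.15 without RA singing library 3. The median log2 level of the shared strong regions had an SD between libraries of 0.16 in RA and 0.17 in Area X. The median effect was larger in size than this SD in RA and smaller in Area X. The SD describes single libraries and the effect is a difference of group means, so the SD is a scale and not its error. All regions share the same libraries, so quartiles and percentages over regions do not measure this spread.

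With DESeq2's size factors in edgeR, the scaling that moved them most, 52.0% of the effects in Area X were negative, with a median of -0.007 beside 0.11 over all regions. In RA 69.5% were, with a median of -0.12 beside 0.05.

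The size of this offset depended on density and on single libraries, and less on scaling. The offset was taken as the median of the 914 regions minus the median of all regions. In Area X it was -0.12 under TMM and with DESeq2's size factors, and -0.09 under column sums. In RA it was -0.17 under each of these, and -0.18 in DESeq2's test. In size these offsets were close to the SD between libraries of the median level in RA (0.16) and smaller than it in Area X (0.17). That SD is a scale only, and the spread of the offset itself between libraries is not given here. By density, the RA median was -0.07 in the least dense 305 regions, -0.20 in the middle 304 and -0.34 in the densest 305, and in Area X these were -0.06, -0.08 and -0.10. The share of reads of the densest 305 had a larger SD between libraries than that of the least dense 305 in Area X singing, Area X silent and RA singing libraries, and not in RA silent libraries, where the SD was 0.195 and 0.218 percentage points. The Area X offset was -0.20 without Area X silent library 1, -0.05 without Area X silent library 2 and -0.07 without Area X singing library 4. The RA offset was -0.05 without RA singing library 3, in which the densest 305 regions took the smallest share of reads. Without RA singing library 4 and RA silent library 2, the pair that stood apart, it was -0.17. The RA offset was -0.22 without RA singing library 1, -0.21 without RA silent library 3 and -0.12 without RA silent library 2. Without the 4 number 1 libraries, a choice made after seeing the data, the offset was -0.24 in RA and -0.26 in Area X. Some of these offsets were thus larger in size than the SD between all libraries of the nucleus.

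**Figure D4:**
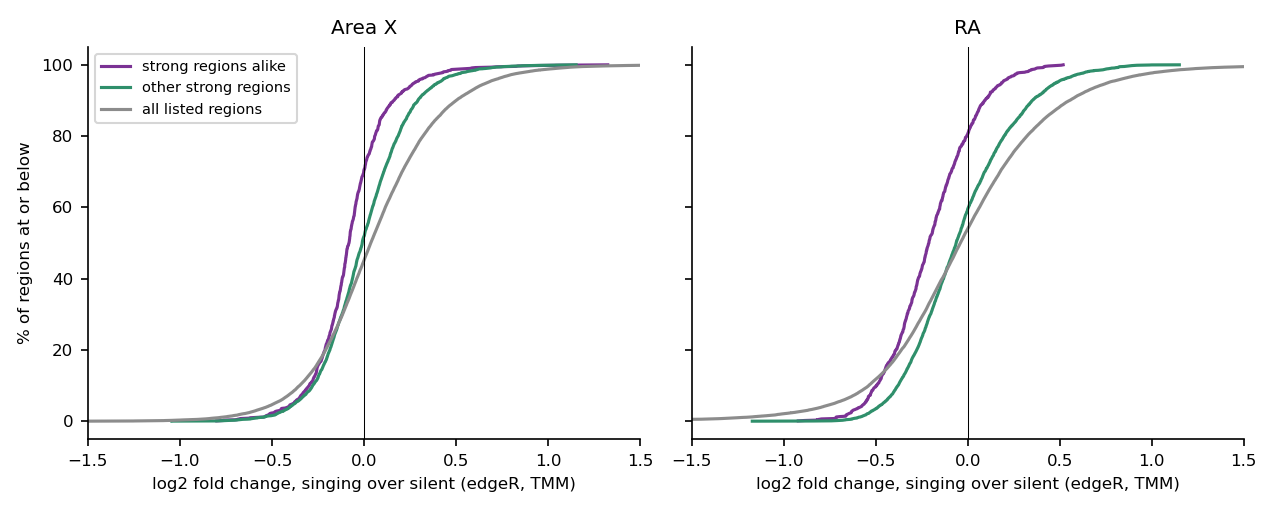
Cumulative percent of regions at or below each fitted log2 difference, singing minus silent, for the 914 shared strong regions, the other strong regions and all regions, in Area X and in RA with TMM scaling. The medians of the shared strong regions are -0.08 in Area X and -0.21 in RA, beside 0.04 and -0.04 over all regions.

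At an unadjusted p under 0.05 in edgeR's test, 0 of the shared strong regions were higher and 26 lower in singing RA (2.84% lower, against 1.16% of all regions lower and 0.807% higher). In Area X 9 were higher and 10 lower (0.985% and 1.09%, against 0.704% and 0.364% of all regions). In the mean of both nuclei 6 were higher and 32 lower (against 1.27% and 1.33% of all regions), and for the difference 3 had a larger effect in Area X and 0 a smaller one (against 0.356% and 0.231%). Of the 26 in RA, 18 were in the densest 305 regions, 6 in the middle 304 and 2 in the least dense 305. The RA count rested on the scaling and on single libraries. In either direction it was 26 (2.84%, against 1.96% of all regions) with TMM and 17 (1.86%, against 2.05%) with DESeq2's size factors. With column sums it was 9 (0.985%, against 1.89%). The excess over all regions in either direction was thus there under TMM and not under the other scalings. Of the 17, 15 were lower in singing, as were all 9 with column sums. The share of all regions lower in singing is not given here under those scalings. Without RA singing library 1 the count in either direction was 64 (7.002%, against 7.88% of all regions), and without RA silent library 2 it was 8 (0.875%, against 9.22%). It was 5 to 15 when RA singing library 2 or 3 or RA silent library 1 or 3 was left out, again at a lower share than over all regions in each fit. Without the pair that stood apart it was 14 (1.53%, against 6.25%). The excess was there in other fits. The count was 21 (2.30%, against 2.097%) without RA singing library 4, and 35 (3.83%, against 3.29%) with the library number as a block. Without the 4 number 1 libraries, a choice made after seeing the data, it was 48 (5.25%, against 4.77%). All of these regions were lower in singing, as were 59 of the 64 without RA singing library 1. In these fits all regions were counted in both directions, so shares lower in singing were not compared.

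The Area X count in either direction was 19 (2.08%, against 1.07% of all regions). It was 8 (0.875%, against 0.395%) without Area X silent library 2, 6 (0.656%, against 0.37%) without Area X silent library 3 and 10 (1.09%, against 0.693%) without Area X singing library 2. In the mean of both nuclei it was 38 (4.16%, against 2.60%). It was 72 (7.88%, against 6.47%) without RA singing library 1, 21 (2.30%, against 7.60%) without RA silent library 2 and 26 (2.84%, against 4.98%) without the pair that stood apart. It was 22 (2.41%, against 1.48%) without Area X silent library 2 and 21 (2.30%, against 1.58%) without Area X silent library 3. Without RA silent library 3 it was 23 (2.52%, against 2.91%). With DESeq2's size factors the count in the mean was 26 (2.84%, against 2.91%), and with column sums 29 (3.17%, against 2.32%).

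In few regions were the libraries of singing and silent birds fully separate. In Area X all 4 singing libraries lay above all 3 silent libraries in 21 regions (2.3%, against 1.51% of all regions) and below them in 40 (4.38%, against 2.37%). In RA they lay above in 6 regions (0.656%, against 0.798%) and below in 33 (3.61%, against 0.979%). Without the pair that stood apart, which leaves 3 singing and 2 silent libraries of RA, they lay above in 21 (2.30%, against 9.27%) and below in 91 (9.96%, against 6.19%). These counts use CPM over column sums.

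The region with the smallest p in the mean of both nuclei was chr19:10434363-10436802, 2440.0 bp wide. It measured 70.1, 59.2, 54.7 and 63.6 CPM in Area X singing libraries, against 96.1, 95.01 and 104 CPM in Area X silent libraries. In RA it measured 73.3, 46.5, 86.1 and 69.1 CPM in singing libraries, against 92.0, 103 and 113 CPM in silent libraries. In both nuclei every singing library lay below every silent library. The fitted log2 difference was -0.67 in the mean of both nuclei (95% interval -1.05 to -0.30), with an unadjusted p of 0.0014 and an adjusted p of 1.00 in edgeR's test. It was -0.69 in Area X and -0.66 in RA.

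In RA the smallest p belonged to chr1A:49376474-49378000, a dense region of 65.7 CPM per kb. It measured 131, 66.0, 65.6 and 54.3 CPM in RA singing libraries, against 146, 128 and 156 CPM in RA silent libraries. The groups overlapped through RA singing library 1, which lay with the silent libraries. In Area X it measured 106, 90.4, 67.3 and 57.4 CPM in singing libraries, against 105, 119 and 111 CPM in silent libraries, which also overlapped through library 1. The fitted log2 difference in RA was -0.89 (SE 0.29), with an unadjusted p of 0.0074 and an adjusted p of 1.00 in edgeR's test.

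A region on unplaced sequence, chrUn:162155758-162156143, 386 bp wide, measured 76.4, 38.5, 46.9 and 35.5 CPM in Area X singing libraries, against 85.6, 78.2 and 88.9 CPM in Area X silent libraries. Its RA values were 64.9, 29.8, 62.7 and 74.1 CPM in singing libraries, against 97.4, 77.4 and 107 CPM in silent libraries. Singing and silent libraries did not overlap in either nucleus. The fitted log2 difference in the mean was -0.80 (95% interval -1.26 to -0.34), with an adjusted p of 1.00 in edgeR's test.

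In Area X the smallest p in the set lay on chromosome 28, at chr28:4251820-4256192, 4373 bp wide. It measured 111, 143, 195 and 173 CPM in Area X singing libraries, against 76.3, 60.8 and 55.8 CPM in Area X silent libraries. In RA the values were 87.9, 123, 139 and 109 CPM in singing libraries, against 92.0, 89.2 and 139 CPM in silent libraries. The Area X groups did not overlap and the RA groups did. The fitted log2 difference was 1.32 in Area X (95% interval 0.68 to 1.97) and 0.02 in RA, with an unadjusted p of 0.000403 and an adjusted p of 1.00 in edgeR's test for Area X. The difference between the nuclei, 1.30 log2 units (95% interval 0.41 to 2.19), had an unadjusted p of 0.0065 and an adjusted p of 1.00 in the same test.

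The region beside it, chr28:4247805-4250206, had the next smallest p in Area X. It measured 119, 134, 156 and 147 CPM in Area X singing libraries, against 74.6, 60.1 and 67.2 CPM in Area X silent libraries. In RA it measured 96.7, 90.2, 113 and 158 CPM in singing libraries, against 96.3, 88.9 and 112 CPM in silent libraries. It too was separated in Area X and overlapping in RA. The fitted log2 difference was 1.07 in Area X (95% interval 0.50 to 1.64, unadjusted p 0.000907, adjusted p 1.00, edgeR) and 0.10 in RA.

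The surroundings of this pair were examined after their values were seen. Within 50000 bp of chr28:4251820-4256192 the table lists 17 regions, of which 5 are shared strong regions. The fitted difference in Area X was positive in 14 of the 17, beside 54.9% of all regions tested. The singing libraries lay above the silent ones without overlap in 5 of the 17, beside 1.51% of all regions. Both counts include the pair of regions chosen for their small p. The median over the 17 was 0.53 log2 units in Area X and -0.02 in RA. The other 3 shared strong regions of this stretch had fitted differences in Area X of 0.58 at chr28:4233224-4237240, 0.41 at chr28:4243159-4245723 and 0.35 at chr28:4264797-4266733. No region of the stretch passed the adjusted threshold, and neighbouring regions share the same libraries.

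**Figure D5:**
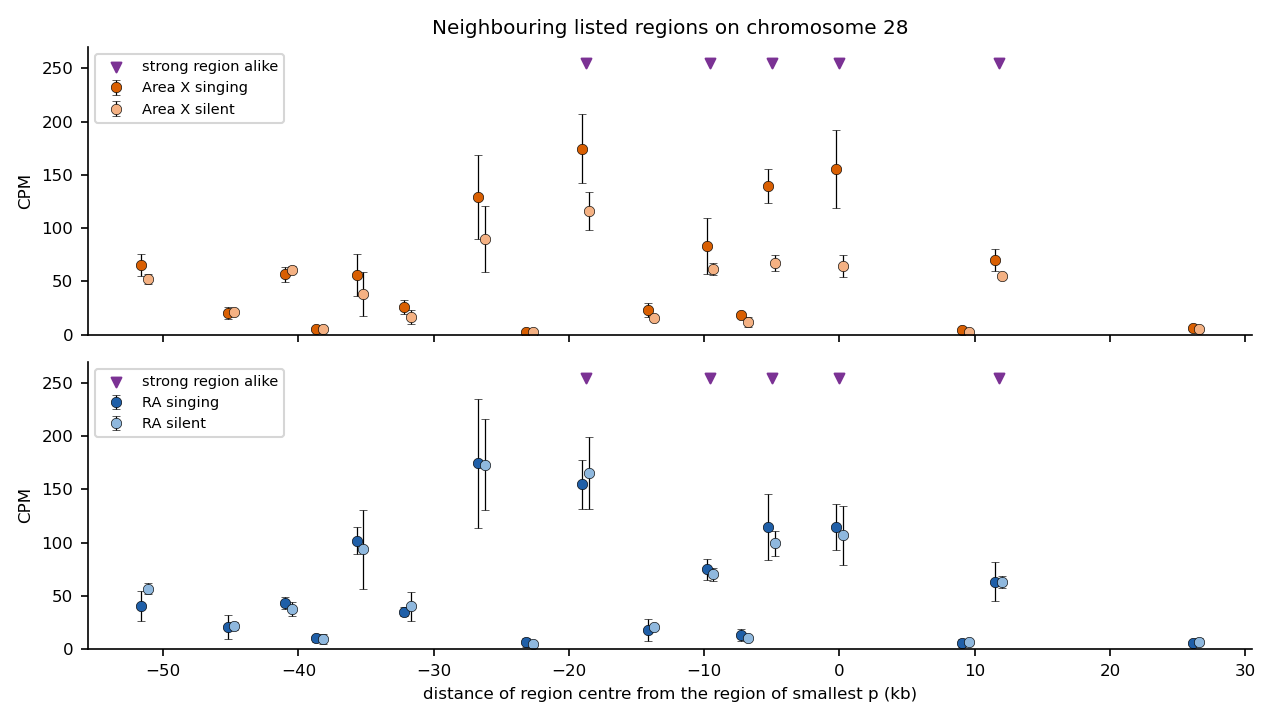
Mean CPM ± SD of singing and silent libraries (n = 4 and 3) in Area X, above, and RA, below, for the 17 listed regions within 50000 bp of the chromosome 28 region with the smallest p, against distance from its centre, with triangles over the 5 shared strong regions. At the centre Area X singing libraries average 155 CPM, against 64.3 CPM in Area X silent libraries, and RA singing libraries 115 CPM, against 107 CPM in RA silent libraries.

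A further region that was higher in Area X singing libraries was chr14:1734232-1739424. It measured 124, 167, 201 and 189 CPM in Area X singing libraries, against 104, 96.5 and 77.9 CPM in Area X silent libraries. In RA the values were 133, 131, 171 and 252 CPM in singing libraries, against 113, 133 and 163 CPM in silent libraries. The Area X groups were separate and the RA groups overlapped. The fitted log2 difference in Area X was 0.92 (SE 0.30), with an unadjusted p of 0.0075 and an adjusted p of 1.00 in edgeR's test.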

How the data were processed

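H3K27ac ChIP-seq was measured in Area X and RA of singing and silent zebra finches. The authors deposited raw read counts for 35958 regions in 14 libraries. SAMtools 1.1, bedtools, MACS2 2.1 and HTSeq 0.6.1 are named in the submitters' processing notes, with no role for each. Not given in the sources used here were the aligner, the genome build and the criteria for regions. Of 8 samples 4 are H3K27ac and 4 whole-cell extracts, and the extracts were not analysed here, so no input was subtracted.

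Levels are CPM over column sums (Python 3.11.15), with SD over libraries. For tests, filterByExpr removed 4 regions and left 35954. Counts were scaled by TMM in edgeR 4.0.16 (R 4.3.3) and tested in a robust quasi-likelihood fit with 1 mean per group over the 14 libraries. P-values were adjusted by the Benjamini-Hochberg method over all regions tested, with a threshold of 0.05. Standard errors are the absolute log2 difference over the square root of F. The test was tested on simulated data. The regions and the named examples were chosen with earlier results of these data known. Named regions are the 10 of highest level, the 5 of smallest p in each comparison of behaviour, the 3 widest and 3 narrowest, the regions nearest each limit, the 5 of lowest and 5 of highest CV, and the longest runs. Alternatives were DESeq2 1.42.0, other scalings, no filter, a threshold of 0.10, leaving out libraries and other limits of the rule. Gene lists could not be applied without gene positions on this build.

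Library numbers come from the column names. Deviations from group means of same-numbered singing and silent libraries were correlated at 0.59, 0.11 and 0.18 in RA. All were above the limit of 0.1, so the numbers were taken to pair these samples there, although 0.11 and 0.18 are weak. In Area X the values were 0.56, 0.01 and 0.51, which did not meet that limit. Across the nuclei, same-numbered libraries were correlated at 0.55, 0.43 and -0.18 in silent samples. In singing samples the values across nuclei were 0.69, 0.03, 0.12 and 0.22. For number 1 the correlation was 0.55 to 0.69 within each nucleus and within each behaviour. The main fit did not use the numbers and treated all 14 libraries as independent, so its p-values in RA ignore that pairing. The fit with the number as a block called 0 of the 914 regions in each comparison of behaviour. That block gave each number the same effect in both nuclei, so a pairing within RA alone was not modelled.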

Additional observations from a re-analysis of the deposited data

Results flagged for a closer look

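Among 76 groups of 4 libraries tested at the named regions, 5 had a library far from the other 3 by Dixon's criterion, where chance gives about 1 in 20, or 3.8. The measure is the gap to the nearest library over the range of the group. At chr14:10761033-10790289, Area X singing library 4 had 1080.3 CPM, against 878 to 899 CPM in the other 3, with a gap of 0.896. At chr11:11433262-11435567, Area X singing library 3 had 42.8 CPM, against 49.5 to 50.6 CPM, with a gap of 0.861.

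The other 3 were all RA singing library 1. It had 456 CPM at chr23:3966641-3983500, against 588 to 609 CPM in the other 3 RA singing libraries, with a gap of 0.860. It had 131 CPM at chr1A:49376474-49378000, against 54.3 to 66.0 CPM, with a gap of 0.848. It had 48.9 CPM at chr3:36969358-36973523, against 103 to 114 CPM, with a gap of 0.837. At chr1A:49376474-49378000, 65.7 CPM per kb, it was the highest of the group, and at chr3:36969358-36973523, 21.3 CPM per kb, the lowest.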

How the results depend on the processing

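The number of regions kept depends on where the limits are set. It was 1457 with a window from 20% below to 25% above even, 327 with 5% either way, 1656 with a minimum of 30 CPM and 270 with a minimum of 100 CPM, against 914. It ranged from 807 to 1050 when each library was left out in turn, was 750 without RA singing library 4 and RA silent library 2, and was 953 without the 4 number 1 libraries, an alternative chosen after seeing the data, as were the counts of non-overlap and of intervals without the pair that stood apart. The median difference of Area X over RA was -0.011 with column sums, against 0.31, and 0.24 to 0.36 when each library was left out. Median singing effects ranged from -0.19 to -0.01 in Area X, -0.23 to -0.09 in RA, -0.20 to -0.05 in the mean and 0.03 to 0.21 for the difference in the same fits. The number of regions called for behaviour was 0 under every alternative run, except that DESeq2's Wald test called 1 in Area X, and ranged from 0 to 0 when libraries were left out. With the replicate block the member medians were -0.07 in Area X, -0.21 in RA, -0.14 in the mean and 0.16 for the difference. The block moved the count at an unadjusted p under 0.05 in RA to 1182 over all regions, against 706, and to 35 among the 914, against 26, and it changed no adjusted call for behaviour. It called 241 of the 914 higher in Area X than in RA, against 111, and 20860 of all regions in either direction, against 19316. The 20 named effects kept their sign in all 420 refits and passed the adjusted threshold in 0. The shallowest library was RA singing library 4, with 0.203 M reads.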
